A study of Mus musculus with 8 samples.

Results

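Transcripts of 10 classical genes of macrophage inflammation were followed across every library of the series: the cytokines Tnf, Il1a, Il1b, Il6, Il12b and Il18, the IL-1 receptor antagonist Il1rn, the inflammasome sensor Nlrp3, the inducible nitric oxide synthase Nos2 and the ubiquitin-editing inhibitor Tnfaip3. They were chosen by name, as a list of textbook genes, with earlier results of these data known. They make up 10 of the 24421 gene symbols in the deposited tables. RNA-seq was made from primary mouse macrophages in 8 libraries: 3 labelled WT, 3 labelled LysM-DKO and 2 labelled ABCG1KO, all from animals on a normal diet and with no stimulus named. The group labelled LysM-DKO was taken to be the Epsin-DKO macrophages that the series' design names, since no other group could carry that name. LysM is the older name of Lyz2, whose promoter is widely used to drive Cre recombinase in myeloid cells. ABCG1 exports cholesterol from cells, and epsins are adaptors of endocytosis. The labels used here do not give the alleles, a Cre control within WT, the tissue the cells came from, the age or sex of the animals, or whether each library is a separate animal. The p-values below therefore measure the spread between these libraries, which may be technical.

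In resting macrophages most of these genes are kept low, and sensing of microbial products or tissue damage induces them within hours through NF-kB and related factors. Tnf and the IL-1 proteins then act on neighbouring cells. IL-1β and IL-18 are made as precursors that are cut by caspase-1 after an inflammasome such as that of NLRP3 assembles. IL-1RN blocks the IL-1 receptor and A20, the product of Tnfaip3, ends NF-kB signalling, so the list holds brakes as well as drivers. Transcript counts do not show the processing or secretion of these proteins.

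Between 29567615 and 41888516 counts per library fell in genes. Levels are given in CPM, that is, counts scaled to a common library size with TMM factors. Abcg1, the targeted gene of its knockout, stood at 60.4 and 73.4 CPM in the ABCG1KO libraries against 345 to 405 CPM in WT. On the log2 scale it fell by 2.52 (SE 0.372; edgeR, Benjamini-Hochberg adjusted p 0.00414). Epn1 had a range of 154 to 183 CPM in LysM-DKO, below the 191 to 230 CPM of WT (log2 fold change -0.30, edgeR adjusted p 0.43), and Epn2 did not pass the test either (0.20, adjusted p 0.852). Lyz2 itself stood at 6176, 8104 and 6265 CPM in LysM-DKO against 13002 to 15707 CPM in WT and 11235 to 14410 CPM in ABCG1KO. It was below WT in 3 of 3 libraries without passing (log2 fold change -1.09, SE 0.202; edgeR adjusted p 0.173), and was called lower than in ABCG1KO (-0.90, SE 0.22; edgeR adjusted p 0.0336). A whole-gene count need not fall when an exon is deleted, so Epn1 and Epn2 leave every LysM-DKO direction below resting on the label. The ABCG1KO libraries stood apart from the other 6. Reads aligned at several places made up 6.74 to 6.93% of all their tallied reads, those not assigned to a gene included, against 2.65 to 3.01%. Reads that matched no counted feature made up 10.2 to 13.8% against 4.26 to 6.07%, and Gapdh had 87 and 159 counts against 28228 to 61737. The transcripts of 9 of the 10 genes share no stretch of 75 bases with another gene, and Il1a shares 7.95% of its stretches with Gm14023 on the opposite strand. Xist was at 0 in both ABCG1KO libraries and at 2 counts in LysM-DKO 1, and Ddx3y, a Y-linked gene, was at 81.6 to 94.7 CPM in these 3. In the other 5 libraries Ddx3y had at most 2 counts. For ABCG1KO the sex pattern, the read statistics and the genotype cannot be told apart.

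Markers of other cells also moved. Macrophage markers summed to 18148 to 20959 CPM in WT, 11074 to 13336 CPM in LysM-DKO and 16541 to 19538 CPM in ABCG1KO, with none of the 10 at 0. Most of the sum was Lyz2: the other 9 markers summed to 4782 to 5814 CPM, 4897 to 5232 CPM and 5129 to 5306 CPM. In ABCG1KO against WT, Adgre1 and Cd163 were called higher and Cd68 lower. Over all genes tested, 7.21% were called higher and 8.83% lower in ABCG1KO than in WT. Of the 10 monocyte markers, 6 were called higher in ABCG1KO than in WT. The list summed to 3774 and 8131 CPM there against 874 to 1566 CPM. Most of each sum was Fn1, at 3524 and 7070 CPM against 861 to 1547 CPM. Markers of resident peritoneal macrophages (4 of 10 called higher) summed to 1983 and 3464 CPM against 70.4 to 498 CPM. Mast cell markers (1 of 6 tested called higher) summed to 12.9 and 55.5 CPM against 2.46 to 5.85 CPM. Neutrophil markers (1 of 5 tested called higher) summed to 228 and 371 CPM against 97.0 to 150 CPM, most of it Csf3r, with S100a9 at 5 and 6 counts and Retnlg at 0. Dendritic cell markers summed to 134 and 326 CPM against 1189 to 2382 CPM, most of it Itgax, the 1 of 7 tested that was called lower (Siglech was called higher). B cell markers summed to 3.21 and 17.5 CPM against 3.16 to 40.6 CPM, and fibroblast and mesothelial markers to 166 and 1211 CPM against 792 to 921 CPM. T and NK cell markers stayed at 2.07 to 7.34 CPM in all 8 libraries. Some LysM-DKO sums also lay outside the WT range. Among all single genes tested, 21.0% showed no overlap between LysM-DKO and WT. B cell markers summed to 0.0485 to 1.56 CPM in LysM-DKO, below all WT libraries, with 7 of 7 tested below 0 on the log2 scale. Dendritic cell markers summed to 439 to 961 CPM and neutrophil markers to 84.1 to 94.3 CPM, also below WT. Most of these sums was again Itgax (434 to 956 CPM) and Csf3r (59.6 to 85.4 CPM). The part of these cells in the results below was not tested, and in bulk RNA fewer cells of a type and less RNA per cell cannot be told apart.

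The sequences upstream of 4 of the genes are shown because their levels carry the comparisons: Tnf and Nlrp3 passed the test in ABCG1KO, Il6 was nearly absent from WT, and Tnfaip3, a target and brake of NF-kB, did not pass. Each line gives the 250 bases before a RefSeq transcript start (GRCm38.p6), written 5′ to 3′ on the gene's strand, with capitals where either strand matches the kappaB consensus. The windows lie at chr17:35202008-35202257 (minus strand) for Tnf, chr11:59541319-59541568 (plus strand) for Nlrp3, chr5:30012864-30013113 (plus strand) for Il6 and chr10:19015411-19015660 (minus strand) for Tnfaip3.
Tnf: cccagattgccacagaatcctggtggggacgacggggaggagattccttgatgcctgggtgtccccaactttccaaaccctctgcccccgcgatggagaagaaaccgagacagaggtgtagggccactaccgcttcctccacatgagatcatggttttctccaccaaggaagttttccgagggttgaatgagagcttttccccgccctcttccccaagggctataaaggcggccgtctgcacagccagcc
Nlrp3: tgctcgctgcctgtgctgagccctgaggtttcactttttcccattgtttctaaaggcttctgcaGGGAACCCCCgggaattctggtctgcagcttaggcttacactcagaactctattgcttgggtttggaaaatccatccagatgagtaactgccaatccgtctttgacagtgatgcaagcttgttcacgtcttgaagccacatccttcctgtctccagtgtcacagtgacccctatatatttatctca
Il6: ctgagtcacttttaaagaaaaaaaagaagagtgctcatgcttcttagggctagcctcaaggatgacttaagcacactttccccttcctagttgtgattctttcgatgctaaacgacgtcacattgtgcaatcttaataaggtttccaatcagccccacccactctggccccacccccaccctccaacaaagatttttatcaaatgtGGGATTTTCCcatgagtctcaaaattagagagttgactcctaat
Tnfaip3: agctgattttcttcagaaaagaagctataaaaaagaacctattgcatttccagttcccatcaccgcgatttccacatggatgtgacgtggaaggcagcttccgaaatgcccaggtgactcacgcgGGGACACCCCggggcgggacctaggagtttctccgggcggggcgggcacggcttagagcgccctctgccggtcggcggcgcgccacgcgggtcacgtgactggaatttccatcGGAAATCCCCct
A kappaB match began 44 bases before the Il6 start and 186 bases before the Nlrp3 start shown. For the Tnfaip3 start shown, matches began 125 and 12 bases before it. Of the 9 listed genes with a window, these 3 (33.3%) held a match in one of their windows. The other window of Nlrp3 (chr11:59542436-59542685) and that of Tnfaip3 (chr10:19011964-19012213) held no match. Among all genes with windows of the same length, 8.23% of 27025 held one. The Tnf window holds no match, which says only that these letters are not in these 250 bases; its start is preceded by TATAAA at 29 bases, a box that 14.3% of all genes carry on either strand. The AP-1 motif TGANTCA, searched on both strands, lies 249 bases before the Il6 start and 136 bases before the Tnfaip3 start. It also lies 12 bases before the Il1a start and 141 bases before an Il1rn start, whose windows are not shown. The other listed genes with a window held none, and the motif was found for 7.82% of all genes. A match is a description of the letters, not evidence of binding.

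Per kilobase of exon, the antagonist Il1rn had the highest mean of the 10 in WT. The length of a gene was the union of the exons of all its annotated transcripts, so an order between genes depends on that length. It stood at 23.6 ± 10.2 CPM per kilobase (SD, n = 3), followed by Tnfaip3 at 12.6 ± 5.22, Il18 at 9.49 ± 0.112, Il1a at 9.07 ± 5.14, Nlrp3 at 6.41 ± 0.633 and Tnf at 4.21 ± 0.690 CPM per kilobase. Nos2 at 0.937 ± 1.62, Il1b at 0.369 ± 0.354, Il6 at 0.0121 ± 0.0209 and Il12b at 0.00906 ± 0.00786 CPM per kilobase came last. In that order only the steps from Nlrp3 to Tnf and from Tnf to Nos2 were wider than the SDs of the neighbours; Il1rn and Tnfaip3, for example, overlapped. In LysM-DKO the leading genes were Tnfaip3 at 12.4 ± 3.97 and Il1rn at 11.7 ± 9.26 CPM per kilobase, which do not differ beyond their spread. In ABCG1KO (n = 2) Tnf, at 20.5 ± 11.6 CPM per kilobase, moved from place 6 to place 1, Nlrp3 from place 5 to place 2 at 17.1 ± 5.46, and Il1rn from place 1 to place 4 at 10.1 ± 2.31; these 3 and Tnfaip3 at 16.1 ± 5.83 overlap in their spread.

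**Figure D1:**
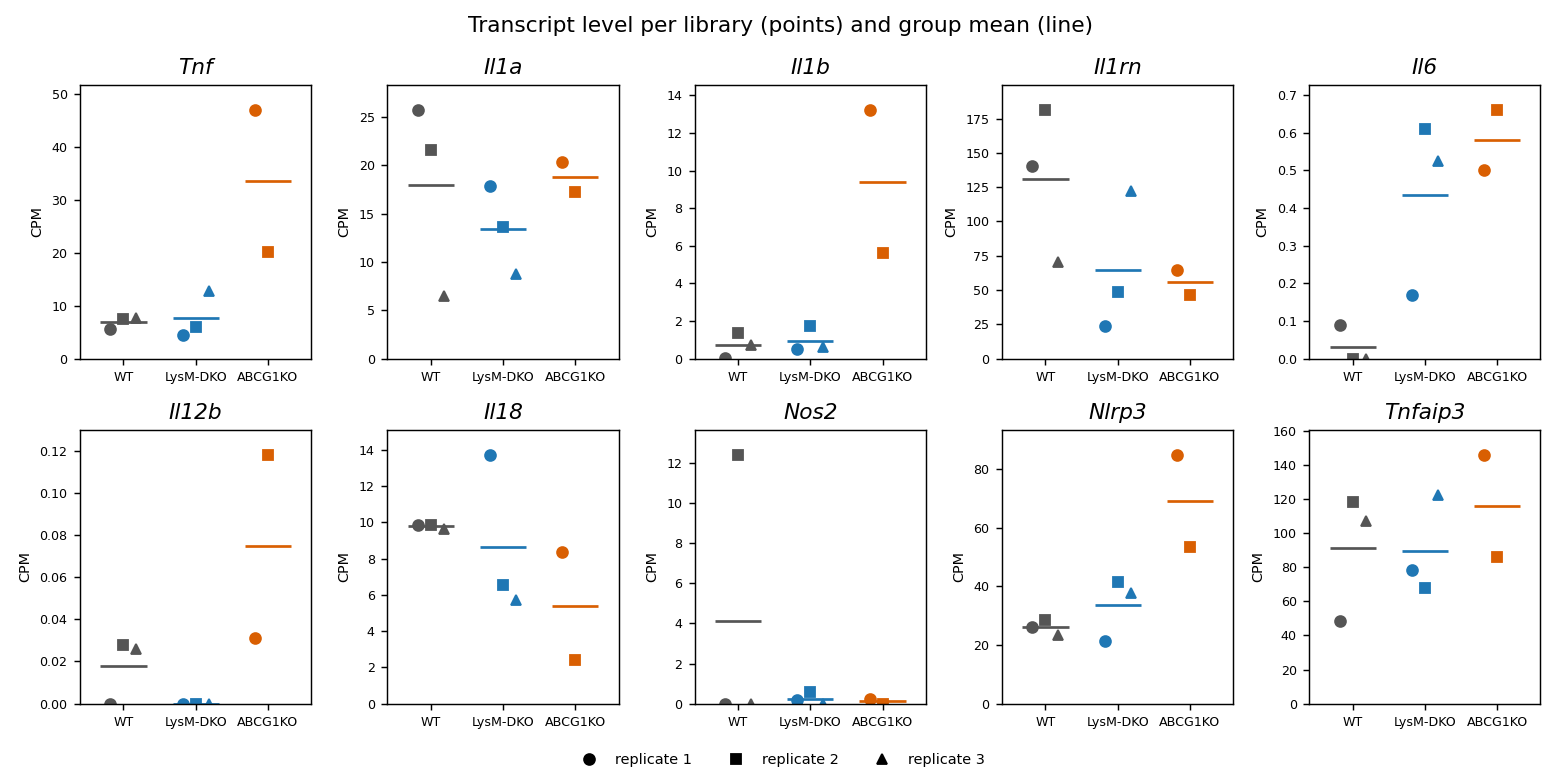
Level of each of the 10 genes in every library, in TMM-scaled CPM on linear axes that start at 0 and differ between panels, with a point for each library and a line for the group mean. Tnf and Nlrp3 in the ABCG1KO libraries sit above all WT and LysM-DKO libraries, Il6 is at or near 0 in WT, and the high Nos2 value is a single WT library.

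Tnf, the cytokine that heads the acute response, was low in WT and LysM-DKO and higher in both ABCG1KO libraries. WT libraries had 5.60, 7.40 and 7.69 CPM, LysM-DKO libraries 4.41, 5.90 and 12.8 CPM and ABCG1KO libraries 46.9 and 20.1 CPM. The lowest ABCG1KO library lay above the highest of the other 6, while LysM-DKO and WT overlapped. Tnf was called higher in ABCG1KO than in WT by 2.28 on the log2 scale, a 4.86-fold ratio of means (SE 0.491; edgeR, Benjamini-Hochberg adjusted p 0.0195). It was called lower in LysM-DKO than in ABCG1KO by the direct test between the knockouts, where the log2 value was -2.12 (SE 0.489; edgeR adjusted p 0.0286). LysM-DKO against WT gave 0.16 (SE 0.444; edgeR adjusted p 0.906). Among the fits that left out 1 library, the call against WT was lost without ABCG1KO 1 (1.54, edgeR adjusted p 0.128), WT 1 (2.15, 0.0681), WT 2 (2.33, 0.0578) or WT 3 (2.37, 0.0535), and that between the knockouts without ABCG1KO 1 (-1.39, 0.194), LysM-DKO 1 (-1.86, 0.0671) or LysM-DKO 2 (-1.98, 0.083).

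Il1b, which codes for the precursor of IL-1β, had few counts in WT and LysM-DKO and more in both ABCG1KO libraries. The counts were 1, 50 and 27 in WT, 21, 71 and 24 in LysM-DKO, and 422 and 237 in ABCG1KO, or 13.2 and 5.59 CPM in the last group against at most 1.38 CPM in WT and 1.73 CPM in LysM-DKO. Both ABCG1KO libraries lay above all the others, and the WT libraries ranged from 1 count to 50. ABCG1KO against WT gave 3.73 on the log2 scale (SE 1.09), which missed the threshold with an edgeR adjusted p of 0.0530. With DESeq2 (3.76, adjusted p 0.00183) or library size as the only scaling (3.96, edgeR adjusted p 0.0386) it passed. In the other 13 of 15 alternatives it stayed uncalled, and the values of all 15 ranged from 2.98 to 4.67. LysM-DKO against WT gave 0.42 (SE 0.970; edgeR adjusted p 0.883), and LysM-DKO against ABCG1KO gave -3.31 (SE 1.07; edgeR adjusted p 0.0784). The last of these passed without WT 1, which also enters the estimate of spread (-3.31, edgeR adjusted p 0.0299), with only the libraries of both groups (-3.32, edgeR adjusted p 0.0441) and with DESeq2 (-3.35, adjusted p 0.00698). In the other 12 of 15 alternatives it stayed uncalled.

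Il1a, the IL-1 form that is active without caspase-1 and is released by dying cells, passed the test in no comparison. WT libraries had 25.7, 21.6 and 6.44 CPM, LysM-DKO libraries 17.9, 13.6 and 8.77 CPM and ABCG1KO libraries 20.4 and 17.2 CPM. WT 3 was the lowest library of the series and the WT range covers both other groups. The log2 fold changes were -0.42 (SE 0.473) for LysM-DKO and 0.07 (SE 0.526) for ABCG1KO against WT, with edgeR adjusted p-values of 0.743 and 0.945. Between the knockouts the value was -0.48 (SE 0.523; edgeR adjusted p 0.569). The sign of the value for ABCG1KO against WT turned without WT 3 (-0.33) and without ABCG1KO 1 (-0.07). The Il1a exons overlap Gm14023 on the opposite strand over 222 bp and those of Il1b overlap Il1bos over 25 bp, so without a stated strand setting reads there cannot be assigned; these neighbours had few counts.

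Il1rn, the antagonist that competes with both IL-1 forms for their receptor, was highest in WT but varied widely. WT libraries had 141, 181 and 70.2 CPM, LysM-DKO libraries 23.8, 48.5 and 122 CPM and ABCG1KO libraries 64.7 and 46.6 CPM. Both ABCG1KO libraries lay below all WT libraries, and LysM-DKO 3 lay inside the WT range. The log2 fold changes of -1.23 (SE 0.674) for ABCG1KO and -1.01 (SE 0.584) for LysM-DKO against WT did not pass (edgeR adjusted p 0.254 and 0.526). Between the knockouts the value was 0.22 (SE 0.651; edgeR adjusted p 0.848), and its sign turned without LysM-DKO 3 (-0.62).

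Set side by side per kilobase, the ratio of antagonist to agonists was above 1 in every WT library and below 1 in both ABCG1KO libraries. Its side of 1 depends on the lengths used, 5.535 kb for Il1rn (6 transcripts) and 1.974 kb for Il1a (1 transcript). In plain counts Il1rn exceeded the sum of the agonists in ABCG1KO too. It had 2063 and 1976 counts there, against 650 and 729 for Il1a and 422 and 237 for Il1b. The ratio of Il1rn to the sum of Il1a and Il1b was 1.95, 2.81 and 3.49 in WT, 0.463, 1.12 and 4.64 in LysM-DKO, and 0.677 and 0.723 in ABCG1KO. The LysM-DKO libraries spread over both other groups. The agonists themselves also changed in proportion: Il1b per kilobase was 0.00118, 0.0663 and 0.112 of Il1a in WT, 0.0295, 0.131 and 0.0708 in LysM-DKO, and 0.672 and 0.337 in ABCG1KO. These ratios were formed after the values of the single genes were known and were not tested.

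**Figure D2:**
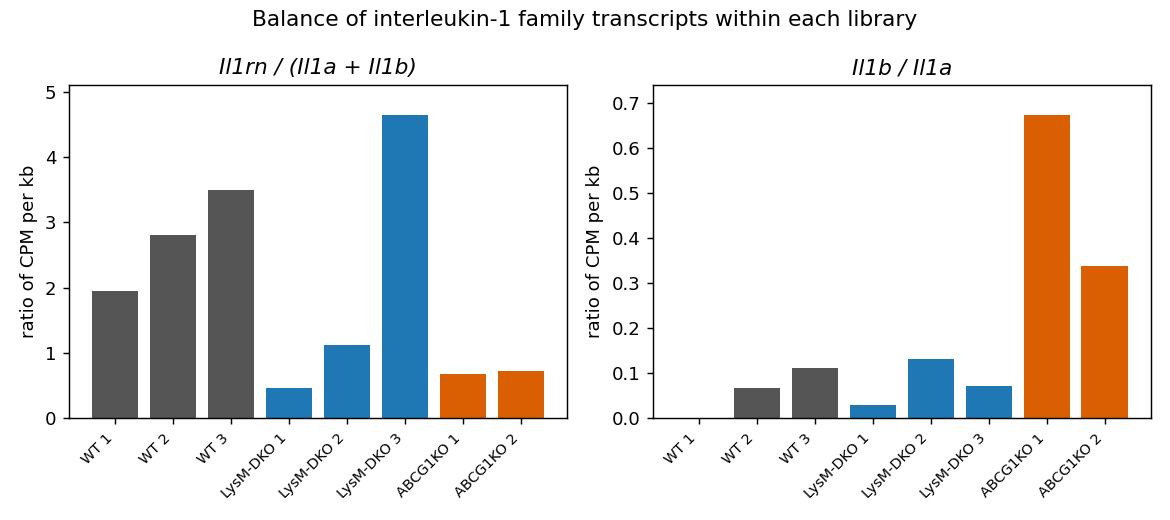
Ratio of Il1rn to the sum of Il1a and Il1b (left) and of Il1b to Il1a (right), both from CPM per kilobase of exon, as 1 bar for each library starting at 0. The left ratio is 1.95 to 3.49 in WT and 0.677 and 0.723 in ABCG1KO, and the right ratio is highest in the ABCG1KO libraries.

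Nlrp3, the sensor that nucleates the inflammasome for IL-1β and IL-18, was higher in both ABCG1KO libraries. WT libraries had 26.2, 28.5 and 23.3 CPM, LysM-DKO libraries 21.4, 41.4 and 37.8 CPM and ABCG1KO libraries 84.9 and 53.5 CPM. WT was tight, both ABCG1KO libraries lay above the other 6, and LysM-DKO reached both below and above WT. Nlrp3 was called higher in ABCG1KO than in WT by 1.41 on the log2 scale, a 2.66-fold ratio of means (SE 0.292; edgeR, Benjamini-Hochberg adjusted p 0.0166). Among the fits that left out 1 library, the call was lost without ABCG1KO 1 (1.04, edgeR adjusted p 0.104), WT 1 (1.42, 0.0531) or WT 3 (1.34, 0.0551). LysM-DKO against WT gave 0.37 (SE 0.266; edgeR adjusted p 0.590). LysM-DKO against ABCG1KO gave -1.05 (SE 0.292; edgeR adjusted p 0.0501), which lay on the other side of the threshold in 6 alternatives. These were DESeq2 (-1.08, adjusted p 0.00707), leaving out ABCG1KO 2 (-1.34, edgeR adjusted p 0.0340), and edgeR with RLE factors, library size only, no count filter or at least 10 counts in every library (-1.04 to -1.12, edgeR adjusted p 0.0429 to 0.0485).

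Il18, the inflammasome substrate that macrophages make without a stimulus, was below WT in both ABCG1KO libraries, a difference that did not pass the test. WT libraries had 9.85, 9.86 and 9.65 CPM, LysM-DKO libraries 13.7, 6.53 and 5.72 CPM and ABCG1KO libraries 8.34 and 2.38 CPM. WT again was tight, and both ABCG1KO libraries lay below it. The log2 fold changes against WT were -0.87 (SE 0.553) for ABCG1KO and -0.18 (SE 0.480) for LysM-DKO, and neither passed (edgeR adjusted p 0.319 and 0.904). Between the knockouts the value was 0.69 (SE 0.549; edgeR adjusted p 0.427). Per kilobase, Nlrp3 was 0.615 to 0.734 of Il18 in WT, 0.396 to 1.68 of it in LysM-DKO, and 2.59 and 5.71 times it in ABCG1KO. In plain counts Nlrp3 exceeded Il18 in every library.

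Il6, a cytokine of the late wave that needs new protein synthesis and chromatin opening, was nearly absent from WT and present at low counts in both knockouts. The counts were 3, 0 and 0 in WT, 7, 25 and 21 in LysM-DKO, and 16 and 28 in ABCG1KO. Every knockout library lay above every WT library. Summed over each group and scaled for depth, the count ratio to WT was 15.7 for LysM-DKO (exact 95% interval 5.10 to 78.7) and 21.5 for ABCG1KO (6.90 to 108), intervals that cover counting error only. By edgeR neither passed (adjusted p 0.354 and 0.0543), and no fitted fold is given because WT is at the limit of 3 counts. ABCG1KO against WT passed with DESeq2 (adjusted p 0.0206), with library size only (edgeR adjusted p 0.0397) and without WT 1, which holds all 3 WT counts (edgeR adjusted p 0.0384). In the other 12 of 15 alternatives it stayed uncalled. The knockouts did not pass against each other (edgeR adjusted p 0.820). Even the highest library reached only 0.660 CPM.

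Il12b, the subunit shared by IL-12 and IL-23, was not detectable at a useful depth. Its counts were 0, 1 and 1 in WT, 0 in each LysM-DKO library, and 1 and 5 in ABCG1KO. It was removed by the filter on low counts and has no test. A library with a count of 0 allows up to 0.0727 to 0.0879 CPM in WT and LysM-DKO, taking 3 counts as the limit.

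Nos2, which makes nitric oxide from arginine in activated mouse macrophages, was high in a single wild-type library. The counts were 0, 449 and 0 in WT, 7, 24 and 0 in LysM-DKO, and 7 and 0 in ABCG1KO, and WT 2 stood at 12.4 CPM. Each of the 3 groups thus held a library at 0. No comparison passed (edgeR adjusted p 0.545 for LysM-DKO and 0.304 for ABCG1KO against WT, and 0.805 between them), and a fold against WT would be a statement about WT 2. WT 2 also had the highest Arg1 of its group, at 570 CPM against 65.6 and 2.07 CPM in WT 1 and WT 3, and the highest sum of B cell markers of the series, 40.6 CPM. The part of either in the Nos2 value was not tested.

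Tnfaip3, which codes for A20, was present in all libraries and differed more within WT than between groups. WT libraries had 48.3, 118 and 107 CPM, LysM-DKO libraries 78.6, 67.9 and 122 CPM and ABCG1KO libraries 146 and 86.2 CPM. All 3 groups overlapped. The log2 fold changes were 0.34 (SE 0.418) for ABCG1KO against WT and -0.03 (SE 0.376) for LysM-DKO against WT. For LysM-DKO against ABCG1KO the value was -0.37 (SE 0.417). None passed (edgeR adjusted p 0.616, 0.984 and 0.584). The value for LysM-DKO against WT turned sign in 5 of 16 alternatives, library size only among them (0.12). That for ABCG1KO against WT turned sign without ABCG1KO 1 (-0.09), and that between the knockouts in 1 of 16 alternatives (0.045). Per kilobase Tnfaip3 was 1.96 to 3.63 times Tnf in WT and 2.16 to 4.05 times it in LysM-DKO, and 0.705 and 0.972 of it in ABCG1KO. In plain counts Tnfaip3 stayed above Tnf in ABCG1KO, at 4650 and 3654 against 1497 and 853.

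Counted together, the 9 tested genes gave calls in ABCG1KO against WT at a share near that of all genes. In ABCG1KO against WT, 2 of 9 (22.2%) were called, both higher, where 16.0% of all 13821 genes tested were called, 7.21% higher and 8.83% lower. With Il1b and Il6, 4 of 9 had an unadjusted p under 0.05, beside 31.5% of all genes. The groups did not overlap for 6 of 9 (66.7%), with Tnf, Il1b, Il6 and Nlrp3 higher and Il1rn and Il18 lower, where 48.2% of all genes showed no overlap, 23.9% on the higher and 24.2% on the lower side. In LysM-DKO against WT, edgeR called 0 of 9 and DESeq2 called 0, with 1 (Il6) under an unadjusted p of 0.05. Without LysM-DKO 1, the library of its group with Y-linked counts, edgeR also called 0. The background there was 0.0362% of genes called by edgeR and 11.7% under the unadjusted threshold. The groups did not overlap for 1 of 9 (11.1%), Il6, which was higher; of all genes 21.0% showed no overlap and 11.0% were higher without overlap. In LysM-DKO against ABCG1KO, 1 of 9 (11.1%), Tnf, was called, and lower, where 13.4% of all genes were called, 7.76% higher and 5.64% lower. An unadjusted p under 0.05 was found for 3 of 9, beside 30.9% of all genes. The groups did not overlap for 3 of 9 (33.3%: Tnf, Il1b and Nlrp3, all lower in LysM-DKO), where 48.2% of all genes did not and 22.6% were lower without overlap.

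The median log2 fold change of the 9 was 0.34 in ABCG1KO against WT beside 0.01 for all genes, -0.03 beside 0.02 in LysM-DKO against WT, and -0.42 beside 0.03 in LysM-DKO against ABCG1KO. These comparisons share libraries and are not independent of each other. Over all genes in ABCG1KO against WT, 996 were called higher and 1220 lower, and with library size as the only scaling 2074 and 856. That scaling moved the median of all genes by 0.23 in ABCG1KO against WT and by 0.15 in LysM-DKO against WT, so the directions above are relative to a centre that the scaling sets. The summed level of the 10 genes did not separate the groups: it was 225 to 381 CPM in WT, 161 to 311 CPM in LysM-DKO, and 385 and 232 CPM in ABCG1KO.

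**Figure D3:**
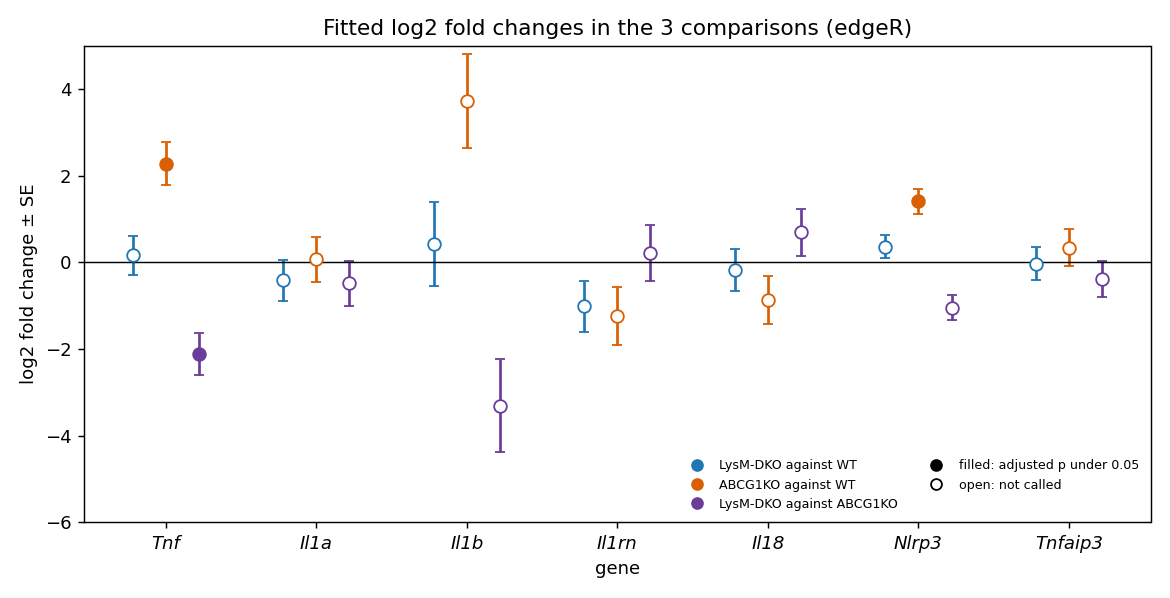
Log2 fold change of Tnf, Il1a, Il1b, Il1rn, Il18, Nlrp3 and Tnfaip3 in the 3 comparisons, as points with bars of 1 standard error from the edgeR fit; Il6, Il12b and Nos2 are left out because a group was at or near 0. Tnf and Nlrp3 passed the test in ABCG1KO against WT (2.28 and 1.41), and Tnf passed in LysM-DKO against ABCG1KO (-2.12).

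Around these 10 genes, 7 lists of pathway partners were counted (105 of 113 listed genes tested). In ABCG1KO against WT, 25 were called higher and 4 lower (27.6%, beside 16.0% of all genes), with a median log2 fold change of 0.49. The NF-kB list held the most calls: 8 of 20 genes higher and 1 lower. Nfkbie, a cytoplasmic inhibitor of NF-kB and itself a target, rose by 1.79 (SE 0.182; edgeR adjusted p 0.000591), and the subunits of the alternative pathway Nfkb2 and Relb rose by 1.12 and 1.57 (edgeR adjusted p 0.000921 and 0.00103). Tax1bp1, an adaptor through which A20 acts, fell by 0.97 on the log2 scale (edgeR adjusted p 0.00362). The risen genes thus include inhibitors as well as subunits. Without ABCG1KO 1 the count was 5 of 20, 4 higher and 1 lower.

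Of the 19 primary response genes and regulators of mRNA decay, 6 were called higher and 1 (Atf3) lower in ABCG1KO. The AP-1 subunit Fosb rose by 4.81 on the log2 scale, the stress-response gene Ier3 by 3.86 (mean 135 CPM, SD 145, n = 2), the transcription factor Cebpb by 1.69 and Zc3h12a, a nuclease that degrades cytokine transcripts including that of Il6, by 1.24 (edgeR adjusted p 0.0109, 0.0196, 0.0347 and 0.0146). Genes of this kind are also known to respond to cell isolation, and the list summed to 3847 CPM in ABCG1KO 1 and 1917 CPM in ABCG1KO 2 against 1836 to 2109.5 CPM in WT; the part of isolation was not tested. The 7 calls became 0 without ABCG1KO 1, 2 without WT 1, 3 without WT 2 and 2 without WT 3.

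Among TNF receptors and signalling genes, 4 of 15 were higher and 1 lower in ABCG1KO. The receptor adaptor Traf2 rose by 0.94, the ubiquitin ligase Birc3 by 1.29 and Adam17, the protease that sheds TNF from the membrane, by 0.74, and the ligand Tnfsf12 fell by 1.26 on the log2 scale (edgeR adjusted p 0.00878, 0.0123, 0.0187 and 0.0258). Of the 15 genes of the IL-6, IL-12 and IL-10 families, 4 were higher: Socs3, which limits IL-6 receptor signalling (3.07), Il10ra (1.52), Osm (2.50) and Ebi3 (0.68), with edgeR adjusted p-values of 0.0155, 0.0223, 0.0374 and 0.0475. The 5 calls of the TNF list became 1 without ABCG1KO 1, 2 without WT 1 and 3 without WT 3. The 4 of the IL-6, IL-12 and IL-10 list became 0 without ABCG1KO 1 or WT 1, 1 without WT 2 or WT 3 and 2 without LysM-DKO 2.

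The other lists held few calls. Irak3, a brake on IL-1 receptor signalling, was the only one of 14 IL-1 family partners called in ABCG1KO (1.06, edgeR adjusted p 0.00762). Of 14 inflammasome genes, Mefv, the pyrin sensor, rose by 3.43 and Casp1, the protease of the inflammasome, fell by 0.66 on the log2 scale (edgeR adjusted p 0.0268 and 0.0233). Of 8 genes of arginine and nitric oxide metabolism, Arg2, the mitochondrial arginase, was called: it rose from 0.434 ± 0.227 CPM in WT (SD, n = 3) to 22.4 ± 0.154 CPM in ABCG1KO (n = 2; log2 fold change 5.68, edgeR adjusted p 0.000896). Without ABCG1KO 1 the calls in the IL-1 family and inflammasome lists became 0, and without WT 1 or WT 2 the inflammasome list had 1; without ABCG1KO 2 they were 2 and 3. The arginine list had 2 calls without WT 1, LysM-DKO 1 or ABCG1KO 2.

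In LysM-DKO against WT, edgeR called 0 of the 105 partners, with 6 (5.71%) under an unadjusted p of 0.05, beside 11.7% of all genes. DESeq2 called Casp1 (-0.59) and Nfkbid (-1.64) lower, where it called 299 of the 13509 genes to which it gave an adjusted p (2.21%). Relative to the WT mean, Nfkbid, which codes for a nuclear regulator of NF-kB, was at -1.46, -1.31 and -2.03 in the LysM-DKO libraries on the log2(CPM + 0.5) scale, against -0.35 to 0.46 in WT, and was singled out after its values were seen. Directly between the knockouts, 21 partners were lower and 1 higher in LysM-DKO than in ABCG1KO (21.0%, beside 13.4% of all genes). The NF-kB list held 8 of the lower and the 1 higher, and its 9 calls became 4 without ABCG1KO 1 and 6 without LysM-DKO 2.

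**Figure D4:**
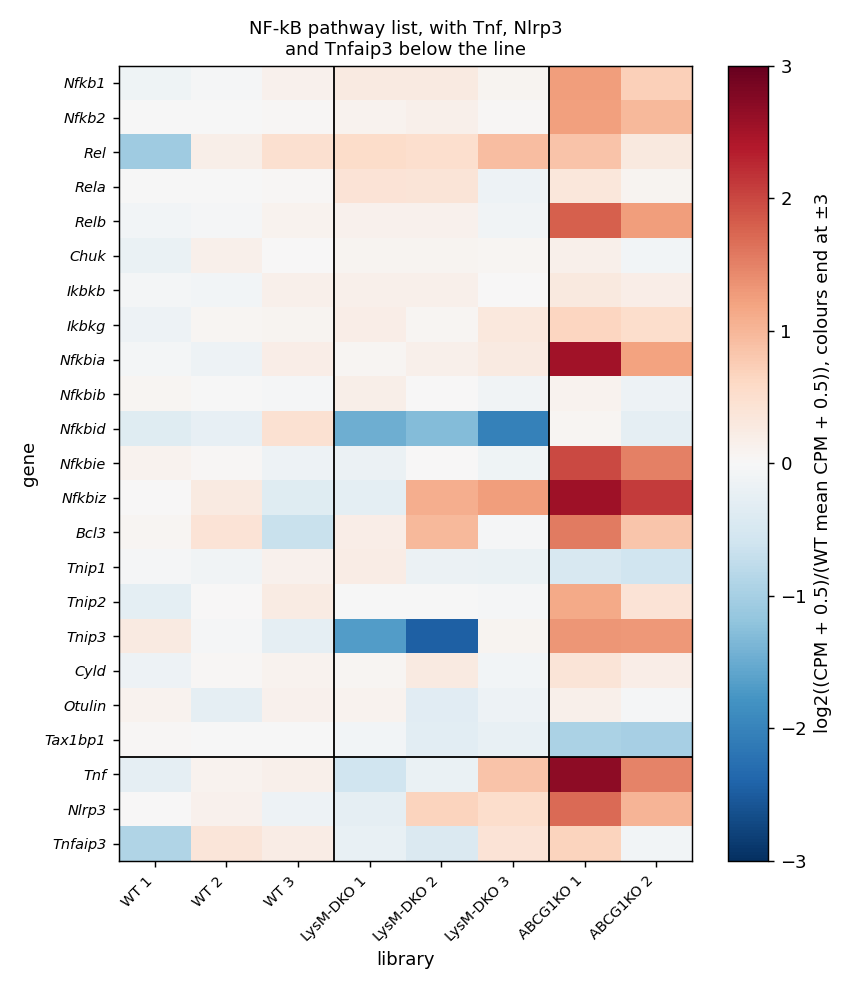
Level of each of the 20 genes of the NF-kB list in the 8 libraries, as log2(CPM + 0.5) relative to the WT mean, with Tnf, Nlrp3 and Tnfaip3 below the line and colours ending at 3 in either direction. Both ABCG1KO columns are raised for the 8 genes called higher and lowered for Tax1bp1, and Nfkbid is lowered in all 3 LysM-DKO columns.

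The genes whose pattern over the 8 libraries came closest to each abundant member were found by the root mean square difference of log2(CPM + 0.5) after centring. For Tnf they were Cebpb (0.290), Fgr (0.303) and Adarb1 (0.345), where Tnf itself varied by 1.03 on that scale. For Nlrp3 they were Kifc3 (0.162), Elk3 (0.184) and Jarid2 (0.190), and for Tnfaip3 they were Plekhg1 (0.211), Acss2 (0.234) and Pde1b (0.253). The nearest to Il1rn were Zranb3 (0.353) and the interferon-induced genes Cmpk2 (0.386) and Irf7 (0.448). Il1a lay nearest to Parvg (0.261), Gas7 (0.327) and Ifitm2 (0.329), and Il18 to Pfdn5 (0.281), Gadd45a (0.298) and Hint3 (0.303). On the same scale Nlrp3 itself varied by 0.623, Tnfaip3 by 0.485, Il1rn by 0.9, Il1a by 0.615 and Il18 by 0.656. The named genes are the closest of 9831 compared, so some closeness comes from the choice. With a pseudocount of 2 in place of 0.5, 15 of the 18 named genes were named again.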

How the data were processed

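The authors deposited raw counts per gene symbol, one table for each of 8 libraries, made with htseq-count per the file headers. HTSeq 0.11.2, STAR 2.7.9a, TopHat, DESeq2 1.30.1, limma and the build mm10 are named, per the submitters' processing notes, without roles; annotation and strand setting are not given in the sources used here. The 5 special lines of each table were left out of library sizes and tests.

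The counts were analysed with edgeR 4.0.16 in R 4.3.3: filterByExpr by group (13821 genes kept), TMM factors, 1 quasi-likelihood fit over all libraries with a term for each group and a robust prior, F tests, and Benjamini-Hochberg adjustment over all genes tested (threshold 0.05). The SE is the log2 fold change divided by the square root of F. The procedure was run on simulated data for each knockout against WT, but not for the knockouts against each other, and the outcome is not given here. Library pairs within groups differed by more than sampling noise. Alternatives included DESeq2 1.42.0, other scalings and filters, and leaving out each library. Lengths and exons came from GENCODE M21 (GRCm38), and promoter windows from RefSeq (GRCm38.p6).

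All 10 genes were named whatever their values; from each pathway list at most 4 called genes by adjusted p, and 3 nearest patterns for each tested gene of at least 5 CPM. Genes, lists and markers were chosen with earlier results of these data known.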

Additional observations from a re-analysis of the deposited data

How the results depend on the processing

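Of 413 values recomputed for the 9 tested genes (27 results), 371 kept their direction and side of the threshold, 12 lost and 14 gained a call, and 16 turned sign. Called genes of the 9 in ABCG1KO against WT numbered 2, but 4 with library size only, 4 with DESeq2 and 0 to 2 leaving out 1 library. In LysM-DKO against ABCG1KO they numbered 1, but 2 with RLE factors, with library size only, with no count filter and with at least 10 counts in every library, 3 with DESeq2, and 0 to 2 leaving out 1 library. In LysM-DKO against WT they stayed at 0. Over all genes, LysM-DKO against WT had 5 calls, but 299 with DESeq2, 3 with no robust prior (an alternative chosen after seeing the data), 8 with only the libraries of both groups and 0 to 8 leaving out 1 library. ABCG1KO against WT had 2216 and 853 to 2090 leaving out 1 library; LysM-DKO against ABCG1KO had 1853, but 2982 with DESeq2, 948 with only the libraries of both groups and 561 to 1960 leaving out 1 library. Tnf lost its call between the knockouts when only the libraries of both groups entered (-2.12, edgeR adjusted p 0.0787).

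The labels do not say that a replicate number marks a shared animal or day, and same-numbered libraries correlated at -0.11 to 0.48 in their deviations, so the numbers were not taken as a pairing. The fit with the replicate block called 1 of the 9 genes in ABCG1KO against WT, where Nlrp3 lost its call (1.44, edgeR adjusted p 0.0557), and 0, 1456 and 1024 of all genes in LysM-DKO against WT, ABCG1KO against WT and LysM-DKO against ABCG1KO. It turned the uncalled values of Il1a in ABCG1KO against WT (-0.17) and Il1rn between the knockouts (-0.15).

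The other turned signs were all in uncalled values. With library size only, Tnfaip3 in LysM-DKO against WT came to 0.12. Leaving out 1 library at a time turned the rest, and the log2 fold changes then spanned these ranges: in LysM-DKO against WT, -0.42 to 0.43 for Tnf, -0.35 to 1.34 for Il1b, -0.69 to 0.050 for Il18, -0.33 to 0.18 for Tnfaip3 and -0.31 to 0.40 for Epn2; in ABCG1KO against WT, -0.33 to 0.42 for Il1a and -0.088 to 0.67 for Tnfaip3; in LysM-DKO against ABCG1KO, -0.62 to 0.60 for Il1rn and -0.70 to 0.045 for Tnfaip3. The cause of these changes was not tested. Requiring 10 counts in every library left no value for Il1b, Il6 and Nos2, and leaving out a library can take Il6 or Nos2 below the filter. Leaving out an ABCG1KO library leaves 1, which is then assumed to vary like the other groups. At about 0.07 to 0.09 CPM for 3 counts, depth limits Il6, Il12b and Nos2.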
